A study of Mus musculus with 7 samples.

Results

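The 45 genes described here encode developmental transcription factors outside the Hox clusters, from 9 families: Pax (8 genes), Irx (6), Six2 to Six6 (5), Lhx (8), Nkx (6), Dlx (6), Msx (2), Otx (2) and En (2). They were chosen by name rather than by a limit on a measured value, though with earlier results of these data known, and all 45 were found among the 21631 protein-coding genes on mouse chromosomes 1 to 19 and X. The cells were murine leukaemia cells of BALB/c background, labelled as bone marrow, into which mutant CSF3R (the receptor for the granulocyte growth factor G-CSF) and mutant CEBPA (a myeloid transcription factor) had been brought by retrovirus. One arm received DMSO, the solvent, for 48 h, and the other received 4 nM GSK-LSD1, an inhibitor of the histone demethylase LSD1 (gene Kdm1a). Both arms carry both oncogenes, so neither is a normal blood cell. Chromatin immunoprecipitation with sequencing was done for H3K4me1, H3K4me3 and H3K27Ac, with 1 library per mark and treatment and 1 input library. The authors merged the 3 marks of each arm into 1 segmentation, in which every stretch of genome carries one of 6 chromatin states, E1 to E6. With 1 segmentation per arm there was no replicate error and no test, read depth is unknown, and each difference below is between 2 segmentations rather than between conditions.

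Paired-domain and homeodomain proteins of these families bind DNA and lay out organs: eye, brain, limb, kidney, jaw, heart and thyroid. In blood cells most of them are silent, and in many cell types such genes are held by Polycomb complexes at promoters rich in CpG dinucleotides. H3K4me3 is typical of promoters, H3K4me1 of enhancers and promoter flanks, and H3K27Ac of active promoters and enhancers. LSD1 removes methyl groups from mono- and dimethylated H3K4. H3K27me3, the Polycomb mark, and RNA were not measured, so the states say nothing of either.

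The states were read by where they lie, since the sources used here do not name the marks behind each. E3 covered most of the genome (73.3% in DMSO and 70.1% in GSK-LSD1) and is called background, and every other state is called marked. E5 and E6 were concentrated at gene ends, and are called start-type here. In DMSO their share of gene ends was 13.3 (E5) and 9.45 (E6) times their share of the genome, and in GSK-LSD1 10.1 and 7.85 times. E4 lay at gene ends at 2.86 times its share in DMSO, and E2 and E1 at 1.24 and 1.4 times. The mark combination behind a number may differ between the arms, so a statement such as "E5 in both" is about labels. Where 2 values are given for a gene, the first is from DMSO and the second from GSK-LSD1. Over the genome E6 covered 0.217% in DMSO and 2.08% in GSK-LSD1, E1 covered 0.483% and 4.72%, and E5 covered 1.98% and 1.53%. Of 15 myeloid marker genes, 6 had a start-type end in DMSO and 11 in GSK-LSD1. Of 15 markers of other cell types, 5 did in each arm. Over all 21631 protein-coding genes, 11186 (51.7%) did in DMSO and 11863 in GSK-LSD1.

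The sequences of 5 start regions, picked for large differences or for no marked chromatin, are printed as examples. They are RefSeq promoters (GRCm38.p6), each 250 bases before to 50 after an annotated start, 5′ to 3′ on the gene's strand, with CpG dinucleotides in capitals. Lhx9 and Six4 had the largest increases in start-type area within 20 kb, chromatin near other genes' ends included. Irx2 had the largest decrease, and Nkx2-1 and Pax1 had no marked chromatin at all.
Lhx9, chr1:138842395-138842694, minus strand, E5 in both arms: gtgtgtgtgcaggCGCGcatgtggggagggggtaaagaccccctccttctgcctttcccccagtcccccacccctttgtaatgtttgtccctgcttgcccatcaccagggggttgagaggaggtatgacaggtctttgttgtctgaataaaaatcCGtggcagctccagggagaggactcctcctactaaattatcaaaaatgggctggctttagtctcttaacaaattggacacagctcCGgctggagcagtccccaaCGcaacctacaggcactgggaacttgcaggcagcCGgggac
Six4, chr12:73113376-73113675, minus strand, E5 in both arms: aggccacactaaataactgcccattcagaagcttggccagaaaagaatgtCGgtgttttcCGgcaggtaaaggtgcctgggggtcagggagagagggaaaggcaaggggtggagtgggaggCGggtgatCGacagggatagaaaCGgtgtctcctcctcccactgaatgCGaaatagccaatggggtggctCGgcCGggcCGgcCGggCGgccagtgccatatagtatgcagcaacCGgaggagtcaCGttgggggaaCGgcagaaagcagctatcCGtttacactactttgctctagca
Irx2, chr13:72628570-72628869, plus strand, E5 in DMSO and E4 in GSK-LSD1: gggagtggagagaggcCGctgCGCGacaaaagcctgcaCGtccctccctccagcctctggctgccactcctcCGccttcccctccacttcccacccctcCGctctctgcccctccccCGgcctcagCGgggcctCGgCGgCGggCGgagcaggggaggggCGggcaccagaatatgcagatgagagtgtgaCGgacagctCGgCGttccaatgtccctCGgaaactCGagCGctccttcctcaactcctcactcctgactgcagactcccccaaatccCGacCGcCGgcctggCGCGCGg
Nkx2-1, chr12:56536859-56537158, minus strand, E3 in both arms: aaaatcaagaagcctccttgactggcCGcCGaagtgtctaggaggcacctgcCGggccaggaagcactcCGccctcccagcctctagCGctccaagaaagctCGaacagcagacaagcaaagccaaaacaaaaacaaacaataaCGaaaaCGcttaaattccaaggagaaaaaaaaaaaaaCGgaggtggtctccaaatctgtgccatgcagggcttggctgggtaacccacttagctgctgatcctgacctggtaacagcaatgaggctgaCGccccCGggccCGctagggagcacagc
Pax1, chr2:147364744-147365043, plus strand, E3 in both arms: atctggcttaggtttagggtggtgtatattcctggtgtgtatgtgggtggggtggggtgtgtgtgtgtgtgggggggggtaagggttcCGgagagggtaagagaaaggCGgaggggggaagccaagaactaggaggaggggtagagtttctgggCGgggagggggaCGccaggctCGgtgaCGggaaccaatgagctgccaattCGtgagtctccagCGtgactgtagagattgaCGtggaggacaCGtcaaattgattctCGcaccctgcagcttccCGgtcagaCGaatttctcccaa
The count of CpG in these 300 bases was 25 in Irx2, 15 in Six4, 13 in Pax1, 12 in Nkx2-1 and 6 in Lhx9. The CpG-poorest of the 5 lay in a start-type region of 9.6 kb in GSK-LSD1, as long as any at the 45 genes, and the CpG-richest was labelled E5 in DMSO only. These 5 picked starts do not give the general relation to CpG. Among 44 annotated starts of these genes, the 26 labelled E5 in DMSO had a median of 18.5 CpG, and the other 18 had 13.

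**Figure D1:**
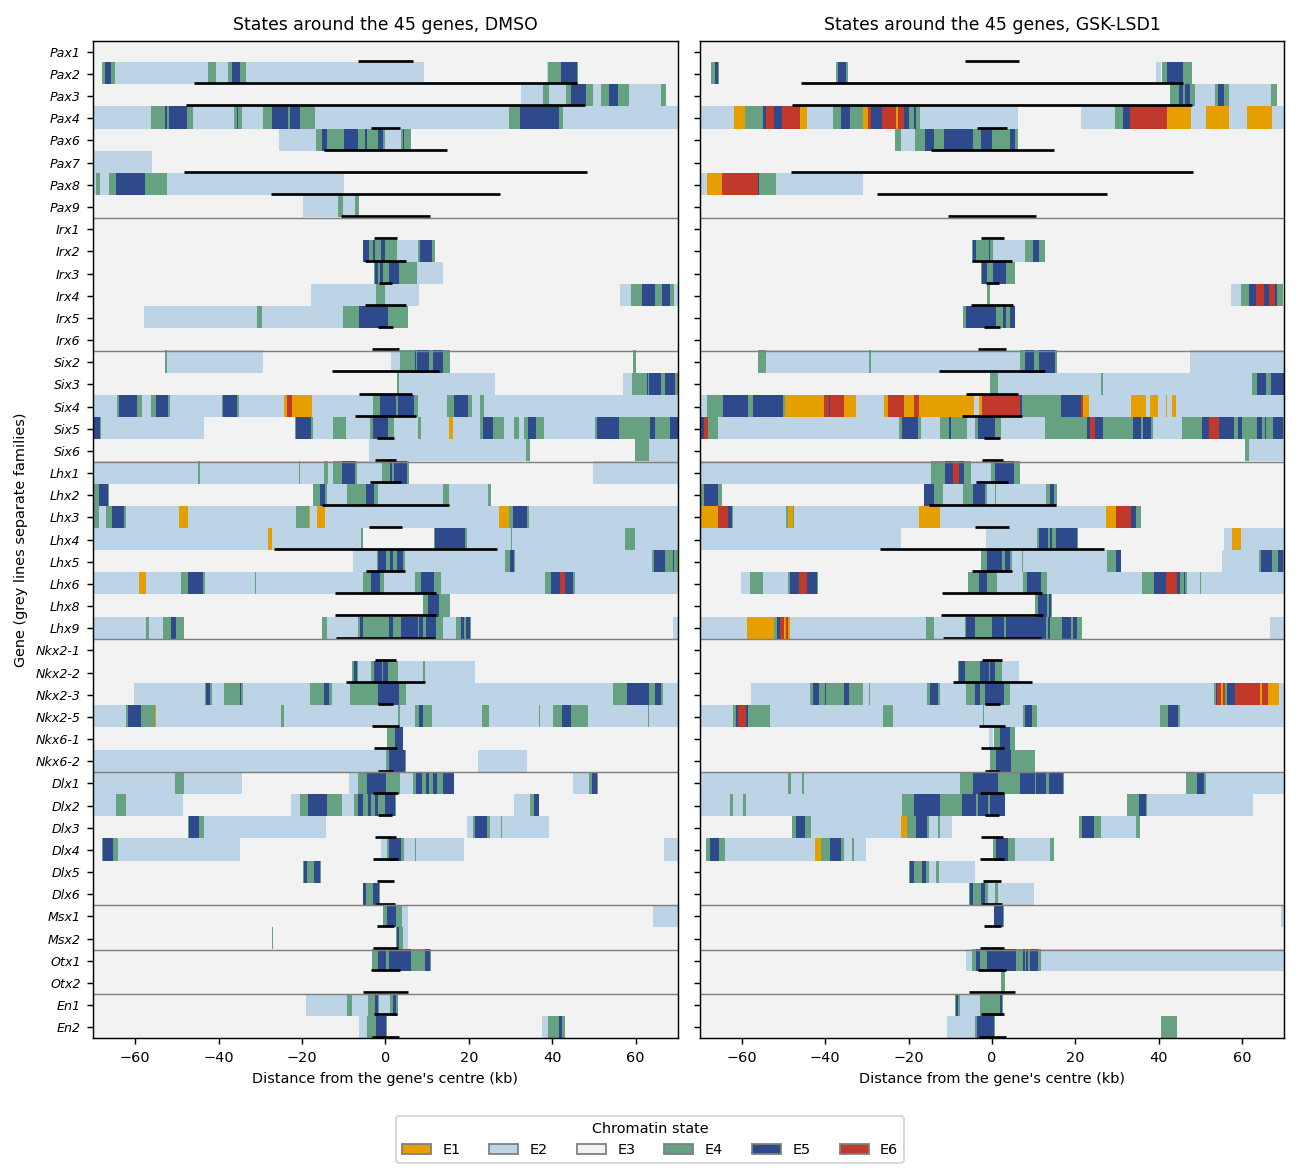
Chromatin states in DMSO (left) and GSK-LSD1 (right) around each of the 45 genes, 1 gene per row, with distance from the gene's centre in kb on the x axis, 1 colour per state and a black line for the gene. E5 or E6 (dark blue or red) lies within 20 kb of 33 genes in DMSO and of 32 in GSK-LSD1, E2 (pale blue) covers less in GSK-LSD1 around Pax2, Lhx4 and Six6, and of E6 (red) only that at Six4 lies over a gene of the 45.

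In DMSO, 22 of the 45 genes (48.9%, exact 95% interval 33.7% to 64.2%) had a start-type state at one or both gene ends, against 51.7% of all protein-coding genes. They were Pax2, Pax3 and Pax6; Irx2, Irx3 and Irx5; Six2 and Six5; Lhx1, Lhx2, Lhx8 and Lhx9; Nkx2-3, Nkx6-1 and Nkx6-2; Dlx1, Dlx2, Dlx4 and Dlx6; Msx1 and Msx2; and Otx1. Every one of these ends was E5 and none was E6. Intervals cover counting error only, and genes of a family or cluster are not independent. Both ends of each gene were used because the gene table gives no strand, so a start-type end need not be the gene's start. By the strand of their annotated starts, the upper ends of Pax2 and Nkx2-3 are not starts. Nor are the lower ends of Irx3 and Dlx2, which were E4 in DMSO and E5 in GSK-LSD1.

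The E5 ends of these genes were mostly E5 in GSK-LSD1 too, and none of them was E6. Of 23 such ends (Nkx2-3 had 2), 19 were E5 in GSK-LSD1, 3 were E4, 1 was E3 and 0 were E6. Taken as 3 of n, the count of 0 allows a share of up to 13.0%. Over all protein-coding genes, 11421 ends were E5 in DMSO, of which 48.6% were E5 and 49.0% were E6 in GSK-LSD1. Counted by gene, 0 of 22 members with an E5 end had it as E6 in GSK-LSD1 (up to 13.6%), against 50% of the 10540 genes with an E5 end. Other developmental regulators, a list of 25 genes, gave the like count, 0 of 10. Homeobox genes used in blood (21 genes) gave 6 of 14, genes of the Polycomb and H3K27 machinery (27 genes) gave 11 of 25, and myeloid markers gave 3 of 5. No difference between these lists was tested.

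Area gave a similar picture. The windows within 20 kb of either end of the 45 genes, merged where they overlap (Dlx1 with Dlx2, Dlx3 with Dlx4, Dlx5 with Dlx6, Six2 with Six3), came to 2330.6 kb in 41 pieces. E5 covered 146.6 kb of them in DMSO and 173.0 kb in GSK-LSD1, a ratio of 1.18, whereas over all genes' windows the ratio was 0.797. Of the DMSO area, 82.3% was E5 in GSK-LSD1, 9.69% was E4 and 7.23% was E6; over all genes' windows the shares were 46.6%, 2.69% and 49.7%. Most of the area that was E6 in GSK-LSD1 lay at 1 gene, Six4: without it the shares were 86.3%, 10.5% and 2.36%. The other developmental genes stood at 79.2%, 17.2% and 2.80%, and the blood homeobox genes at 47.6% E5 and 48.3% E6.

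**Figure D2:**
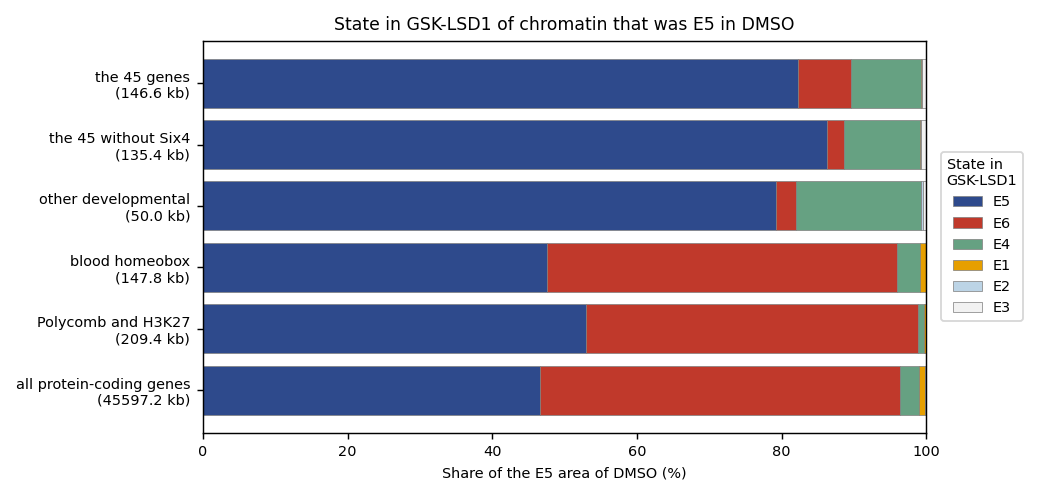
State in GSK-LSD1 of the area that was E5 in DMSO, as a percentage of that area (x axis), in the windows of 6 gene sets (y axis, with the E5 area in DMSO in kb). E6 (red) takes 7.23% at the 45 genes, 2.36% without Six4, 48.3% at blood homeobox genes and 49.7% over all protein-coding genes.

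Gene by gene, 33 of the 45 had E5 somewhere in the window in DMSO. In 30 of them (90.9%) no E5 bin was E6 in GSK-LSD1, against 27.3% of the 15119 genes with E5 in DMSO. The median share of a gene's E5 that was also E5 in GSK-LSD1 was 93.1%, against 51.9% over all such genes. In 9 members the share was 100%: Irx5, Lhx2, Lhx9, Nkx2-5, Nkx6-1, Dlx3, Dlx4, Msx1 and En2. The lowest shares were 0% at Msx2, 28.6% at Pax4, 33.3% at En1, 33.9% at Six4, 44.8% at Irx2 and 58.6% at Pax3.

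These windows also held less marked chromatin than those of all genes. Among all genes with E5 in DMSO, 75.8% of 15119 had E6 in GSK-LSD1. Among those with at most 26.8 kb marked in DMSO, the median of the 33 members with E5, it was 37.0% of 2837. Of the 17 members under the same limit, 0 had E6 (up to 17.6%). This limit was chosen after the values had been seen, and the part of marked area in the contrast with all genes was not tested.

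Start sites gave similar shares. The promoter table gave 44 starts of 33 of the genes. E5 lay over 26 of the starts in DMSO (59.1%, against 49.7% of 21045 starts of all protein-coding genes). In GSK-LSD1, 22 of the 26 (84.6%) were E5, 2 were E4, 1 was E3 and 1 was E6; over all genes 47.0% were E5 and 51.2% were E6. The starts that were E4 belong to Irx2 and Nkx2-2, the E3 start to Msx2, and the E6 start to Six4. These genes' promoters were rich in CpG, with a median of 17 in 300 bases against 13 over all starts, and 60.0% against 56.7% G or C. Among the 26 E5 starts the median was 18.5, and among the other 18 it was 13. At like CpG content, of all E5 starts with at least 17 CpG, 53.0% of 7261 were E6 in GSK-LSD1, and of the members' 17 such starts 0 were (up to 17.6%). On either strand, searched separately, TAATTA, a core bound by many homeodomains, stood in 3 of the 44 windows (6.82%, against 4.47% of all), TATAAA in 3 (6.82%, against 12.7%) and AATCA in 15 (34.1%, against 34.8%).

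A start-type end was present in 1 arm only at 5 of the 45 genes. En2, 1 of 45, had it in GSK-LSD1 only, against 4.11% of all genes. Pax2, Pax3, Irx2 and Msx2, 4 of 45, had it in DMSO only, against 0.985% of all genes. En2 (chr5:28165696-28172190), a factor of the midbrain and cerebellum, was E4 at its lower end in DMSO and E5 in GSK-LSD1, and its E5 region measured 2.4 kb and 4.0 kb. The region was present in both arms and reached over the gene's end in GSK-LSD1. With bins up to 1 kb from an end counted, 0 genes had a start-type end in GSK-LSD1 only (2.64% of all genes) and 1, Msx2, in DMSO only (0.804% of all genes).

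Of the 4 genes with such an end in DMSO only, 3 still had E5 nearby. Pax2 (chr19:44746601-44838269), a factor of kidney and optic stalk, was E5 at its upper end in DMSO and E4 in GSK-LSD1, with 5.8 kb and 6.0 kb of E5 in its window. Pax2 lies on the plus strand, so this end is not its start, and the E5 region in GSK-LSD1 stopped 0.07 kb short of it. Its 3 annotated starts were E2, E4 and E5 in DMSO and E3, E5 and E5 in GSK-LSD1. Pax3 (chr1:78101267-78197136), a factor of neural crest and muscle precursors, was E5 at its upper end in DMSO and E4 in GSK-LSD1, and its window held 5.8 kb and 3.4 kb. At its upper end a single region of 3.6 kb in DMSO stood as 3 pieces of 1.0, 0.4 and 0.6 kb in GSK-LSD1. Irx2 (chr13:72624430-72634196) held 5.8 kb and 2.6 kb, the largest difference downward: its regions of 1.4, 1.0 and 2.8 kb measured 0.8, 0.4 and 1.4 kb in GSK-LSD1, and another of 0.6 kb had no counterpart. Msx2 (chr13:53466881-53472780), a factor of skull and limb, was the exception: its only E5 region, 0.6 kb at the upper end, was E3 in GSK-LSD1, and no marked bin was left in its window.

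The area of start-type chromatin was larger in GSK-LSD1 at 23 of the 45 genes, smaller at 7 and equal at 15. Among the 7, Nkx6-2, En1, Dlx5 and Dlx6 differed by a single bin (-0.2 kb), and Dlx5 and Dlx6 share their E5. Over all protein-coding genes the start-type area was larger at 66.1% and smaller at 4.29%. The members' median was 2.8 kb (DMSO) and 3.4 kb (GSK-LSD1) (all genes 3.4 kb and 5.4 kb), with a median difference of 0.2 kb (all genes 1.4 kb). All 21 blood homeobox genes and all 27 Polycomb and H3K27 genes had more, with median differences of 3.4 kb and 4.2 kb, whereas the other developmental genes had a median of 0.2 kb, with 13 of 25 larger and 6 smaller. E5 alone was larger at 21 of the 45 genes and smaller at 9, against 28.6% larger and 40.1% smaller over all genes. With E4 counted as start-type, 22 were larger and 16 smaller, against 55.0% and 20.5% over all genes.

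**Figure D3:**
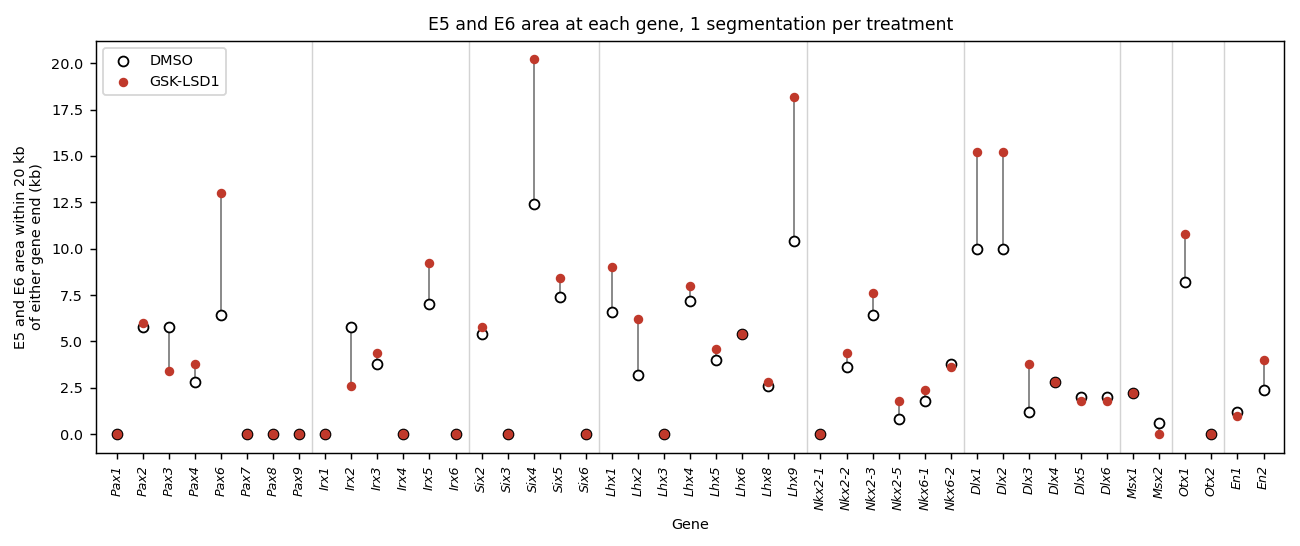
E5 and E6 area in kb (y axis) within 20 kb of either end of each of the 45 genes (x axis, grey lines between families), DMSO as open and GSK-LSD1 as red circles, 1 segmentation each. Six4, Lhx9 and Pax6 are higher in GSK-LSD1 by 7.8, 7.8 and 6.6 kb, Irx2 and Pax3 are lower by 3.2 and 2.4 kb, and the 12 genes at 0 in both arms had no E5 or E6.

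The Lhx genes encode LIM-homeodomain factors of neurons, limb, pituitary and gonad. Their start-type area was larger at 6 of 8 genes (75.0%, near the 66.1% of all protein-coding genes) and smaller at none (4.29% of all genes). Lhx9 (chr1:138825186-138848839), a factor of the early gonad, held 10.4 kb (DMSO) and 18.2 kb (GSK-LSD1), all of it E5. With chromatin within 2.5 kb of other genes' ends left out, Lhx9 held 8.8 kb and 14.0 kb, a smaller difference than at Pax6 (6.4 kb and 13.0 kb). Its regions of 4.0, 0.8 and 2.4 kb at the upper end were 1 region of 9.6 kb in GSK-LSD1, and the 2 within the gene, 0.8 kb each, measured 2.2 kb and 2.8 kb. Lhx2, needed for eye and forebrain, had 3.2 kb and 6.2 kb, and Lhx1, a factor of kidney and head organizer, had 6.6 kb and 9.0 kb, of which 1.4 kb was E6. That E6 lay in a region over an end of the neighbouring gene Aatf (chr11:84422856-84513584). Lhx4 held 7.2 kb and 8.0 kb, Lhx5 4.0 kb and 4.6 kb, and Lhx8 2.6 kb and 2.8 kb. Lhx6, a factor of cortical interneurons, held 5.4 kb in both, and Lhx3, a pituitary and motor neuron factor, held none.

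The Dlx genes, which lie in pairs in the genome, are active in forebrain and jaw. Dlx1 (chr2:71528113-71533981) and Dlx2 (chr2:71543408-71546754) share their E5 chromatin, 10 kb (DMSO) and 15.2 kb (GSK-LSD1). The region over Dlx1 measured 4.6 kb and 6.0 kb, and the lower end of Dlx2 was E4 in DMSO and E5 in GSK-LSD1. Dlx3 held 1.2 kb and 3.8 kb. In DMSO this was the edge of the region over Dlx4, and the difference was a 2.6 kb region 13.12 kb from the gene that was not start-type in DMSO. Dlx4 held 2.8 kb in both, and Dlx5 and Dlx6, in a shared window, 2.0 kb and 1.8 kb.

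In the Pax family, Pax6 (chr2:105668896-105698410), the regulator of eye and pancreas development, held 6.4 kb (DMSO) and 13.0 kb (GSK-LSD1). Within the gene, regions of 3.2 and 0.4 kb in DMSO were 1 region of 7.0 kb in GSK-LSD1, and those of 1.4 and 0.2 kb measured 2.6 and 1.4 kb. The region at its lower end measured 1.2 kb and 2.0 kb. Pax4, a pancreatic islet factor, had 2.8 kb and 3.8 kb, but none of it at its own ends: the E6 in its window, 2.0 kb in GSK-LSD1, belonged to regions over the ends of Gcc1 and Arf5. Pax1, Pax7, Pax8 and Pax9, factors of sclerotome, muscle satellite cells, thyroid and teeth in that order, had no start-type chromatin in either arm.

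The genes Six2 to Six6, relatives of the fly gene sine oculis, include the one gene of the 45 with E6 over its own body. Six4 (chr12:73099609-73114031), a muscle and sensory organ factor, held 12.4 kb (DMSO) and 20.2 kb (GSK-LSD1) of start-type area. E5 in its window measured 11.2 kb and 5.4 kb, and E6 1.2 kb and 14.8 kb. Of 2 annotated starts, one was E5 in both arms (its promoter is printed above) and the other E5 in DMSO and E6 in GSK-LSD1. The region at its upper end, 9.6 kb in GSK-LSD1, also covers an end of Mnat1 (chr12:73112185-73273988), a gene of the basal transcription machinery, so the state of one cannot be told apart from that of the other there. The other regions holding E6, of 4.0, 1.2 and 5.4 kb, lay 13.81, 10.41 and 9.17 kb from an end of Six4 and over no end of another protein-coding gene. The region of 5.4 kb lay inside Mnat1, so it cannot be assigned to Six4. Six5 held 7.4 kb and 8.4 kb, but the region at its end also covers an end of Dmpk, and with chromatin within 2.5 kb of other genes' ends left out it held 0.0 kb and 0.4 kb. Of the 22 genes with a start-type end in DMSO it was the only 1 whose region there also covered an end of another protein-coding gene. Six2, a kidney progenitor factor, held 5.4 kb and 5.8 kb. Six3 and Six6, both eye and forebrain factors, held none.

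The Irx genes, patterning factors that lie in clusters on chromosomes 8 and 13, differed within each cluster. On chromosome 8, Irx5 held 7.0 kb and 9.2 kb and Irx3 held 3.8 kb and 4.4 kb, with E5 in place of E4 at the lower end of Irx3 in GSK-LSD1, while Irx6 had no marked bin in either arm. On chromosome 13, Irx2 was the one described above, Irx4 held no start-type bin, and Irx1 had no marked bin.

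Among the Nkx genes, Nkx2-3, needed for spleen and gut vessels, held 6.4 kb and 7.6 kb, with E5 at both ends in both arms and its whole window of 43.8 kb marked. Nkx2-2 and Nkx6-1, of spinal cord and pancreas, held 3.6 kb and 4.4 kb, and 1.8 kb and 2.4 kb. Nkx2-5, the heart factor, held 0.8 kb and 1.8 kb, away from its E2 ends. Nkx6-2 held 3.8 kb and 3.6 kb, and Nkx2-1, the thyroid and lung factor, had no marked bin in its 45.2 kb. Otx1, a forebrain factor, held 8.2 kb and 10.8 kb, and its lower end was E3 in DMSO and E5 in GSK-LSD1. With chromatin within 2.5 kb of other genes' ends left out, Otx1 held 6.4 kb and 8.0 kb. Its relative Otx2 had no start-type bin and 0.8 kb of E4 in GSK-LSD1. Msx1 held 2.2 kb in both, En1 1.2 kb and 1.0 kb, and En2 2.4 kb and 4.0 kb.

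The states E1 and E6, whose share of the genome was larger in GSK-LSD1, reached few of these genes. Their summed area was larger in GSK-LSD1 at 5 of the 45 (11.1%, exact 95% interval 3.71% to 24.1%), against 58.9% of all protein-coding genes, and smaller at 2 (4.44%, against 0.948%). The 5 were Six4 (6.6 kb and 33.4 kb), Lhx3 (2.2 kb and 4.8 kb), Pax4 (0.0 kb and 2.4 kb), Lhx1 (0.0 kb and 1.4 kb) and Dlx3 (0.0 kb and 1.4 kb). The 2 were Six5 (0.8 kb and 0.0 kb) and Lhx4 (1.0 kb and 0.0 kb). The area at Lhx3 and Dlx3 was E1 alone. With chromatin within 2.5 kb of other genes' ends left out, 3 of the 45 (6.67%, against 53.0% of all genes) had more and 1, Six4, had any E6. With windows of 50 kb, 11 of the 45 (24.4%, against 68.3%) had more, and with 5 kb 2 (4.44%, against 47.5%) had. In the windows of 20 kb, the count with more was 17 of 21 for blood homeobox genes, 25 of 27 for Polycomb and H3K27 genes and 2 of 25 for other developmental genes.

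Most of the additional E5 lay where E4 had been. Of the 173.0 kb of E5 in GSK-LSD1, 120.6 kb (69.7%) had been E5 in DMSO, 46.4 kb (26.8%) E4, 4.4 kb E2 and 1.6 kb E3. Over all genes' windows 58.5% had been E5 and 33.5% E4. Seen from DMSO, 25.2% of the members' E4 area was E5 in GSK-LSD1, near the 22.8% over all genes. A share of 0.979% was E6 and 0.544% was E1 (0.113% each without Six4), whereas over all genes 17.6% was E6 and 17.8% was E1.

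E2, the most widespread marked state, covered less in GSK-LSD1. It measured 729.0 kb (DMSO) and 469.6 kb (GSK-LSD1) over the members' windows, a ratio of 0.644, against 0.834 over all genes' windows, and it was lower at 26 of the 45 genes and higher at 13 (lower at 55.4% and higher at 21.4% of all genes). Of the members' E2 area, 42.1% was background in GSK-LSD1, against 14.4% over all genes, 46.6% at other developmental genes and 8.37% at blood homeobox genes. In the other direction 7.90% of the members' background was E2 in GSK-LSD1, against 15.2% over all genes. The E2 ends show it too: of 25 ends in E2, 11 were E3 in GSK-LSD1 (44.0%, all genes 14.9%). Of the members' E2 area 2.72% was E1 in GSK-LSD1 (0.601% without Six4), and of all genes' E2 area 14.9%.

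**Figure D4:**
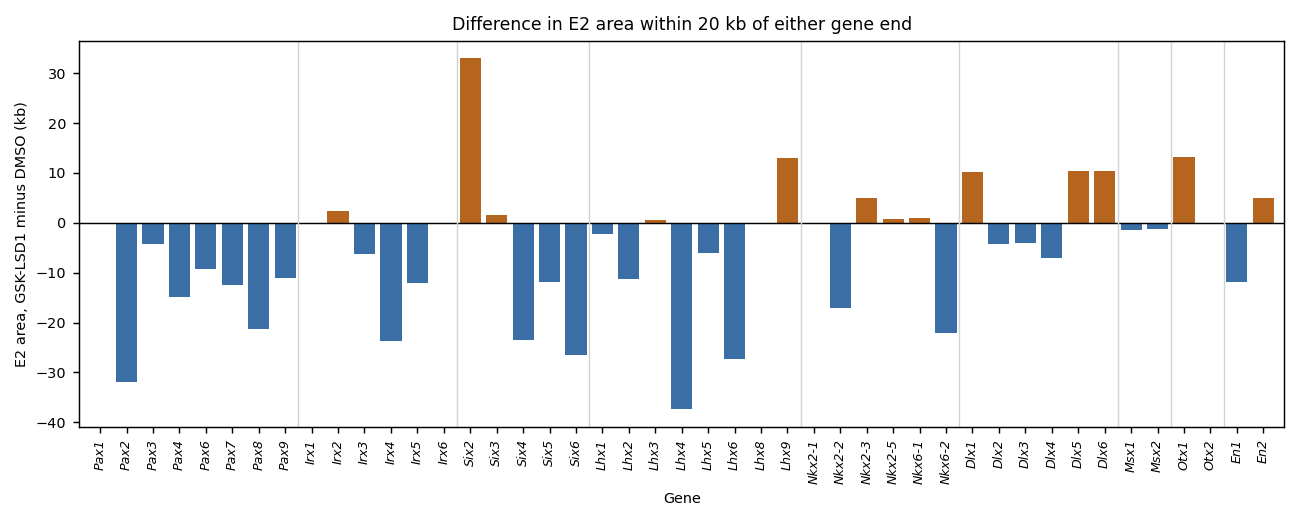
Difference in E2 area (GSK-LSD1 minus DMSO, kb, y axis) within 20 kb of either end of each of the 45 genes (x axis, grey lines between families), blue where lower and brown where higher. Bars run from -37.4 kb at Lhx4 to 33.0 kb at Six2, with 16 genes (35.6%) lower and 6 (13.3%) higher by at least 10 kb, near the 30.6% and 11.2% of all protein-coding genes.

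Marked area as a whole was smaller at 22 of the 45 genes (48.9%, exact 95% interval 33.7% to 64.2%), against 21.0% of all protein-coding genes, larger at 14 (31.1%, against 29.9%) and equal at 9. The median was 24.2 kb (DMSO) and 15.6 kb (GSK-LSD1), with a median difference of 0.0 kb, while over all genes it was 40.8 kb and 42.4 kb. Lhx4 (chr1:155698031-155751726), a pituitary and motor neuron factor, had 75.4 kb marked (DMSO) and 38.8 kb (GSK-LSD1). Pax2 had 47.6 kb and 11.4 kb, Six6 (chr12:72939882-72944899) 26.6 kb and 0.0 kb, and Lhx6 (chr2:36081950-36105992) 64.2 kb and 38.0 kb. Six2 (chr17:85662736-85688254) went the other way, with 17.8 kb and 48.4 kb. In each of these 5, the marked state that differed most was E2.

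The families did not go one way. All Pax genes but Pax1, which had no marked bin, had less marked area in GSK-LSD1, 7 of 8, and their differences summed to -110.0 kb. The Lhx sum was -62.2 kb, the Irx sum -48.6 kb and the Nkx sum -28.8 kb. The Dlx sum was 36.6 kb, or 25.8 kb with bins in shared windows counted once, with 5 of 6 genes larger, and the Otx sum was 16.4 kb. Summed start-type area, with shared windows counted once, had another order: Lhx 14.8 kb, Six2 to Six6 9.2 kb, Dlx 7.6 kb, Pax 5.4 kb, Nkx 3.4 kb, Otx 2.6 kb, En 1.4 kb, Irx -0.4 kb and Msx -0.6 kb. Thus the Pax sum was negative for marked and positive for start-type area. Start-type area was larger at 3 of the 8 Pax genes, smaller at 1 and equal at 4. Pax6 alone, with 6.6 kb, exceeded the family's sum.

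Windows without any marked bin in either arm were found at 4 of the 45 genes (8.89%, against 19.3% of all protein-coding genes): Pax1, Irx1, Irx6 and Nkx2-1. Pax7, Pax9, Six6 and Msx2 had marked chromatin in DMSO only (8.89%, against 2.32%), and Otx2 in GSK-LSD1 only (2.22%, against 1.62%). The windows of Six4, Lhx3, Nkx2-3 and Nkx2-5 were wholly marked in both arms (8.89%, against 28.8%). Lhx3 and Nkx2-5 show that a wholly marked window need not have a start-type end, since both lay in E2 at both ends in both arms.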

How the data were processed

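ChIP-seq libraries for H3K4me1, H3K4me3 and H3K27Ac, 1 per mark and treatment, were made with a commercial kit, per the labels' protocols. Per the submitters' processing notes, Bowtie was among the tools and mm10 (GRCm38) was the build. The deposited values are state labels (E1 to E6) on a 200 bp grid, which the authors made from the 3 marks of each arm, and not counts or signal. Not given in the sources used here were the segmentation tool, its threshold for a mark, the use of the input and the meaning of each state. A mark just under a threshold is absent from a state, so a deeper or cleaner library can be marked in more places.

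Each segmentation was expanded to bins. Gene ends came from a RefSeq table (GRCm38.p6, 21631 protein-coding genes, no strand), and windows spanned 20 kb either side of both ends. Starts and promoter sequences came from RefSeq promoters, which gave 33 of the 45 genes. All 45 members and 148 of 148 list entries matched. Python 3.11.15, numpy 2.4.6, pandas 2.3.3, scipy 1.17.1 (exact Clopper-Pearson intervals) and matplotlib 3.10.9 were used. Window calculations were checked on a copy of the DMSO segmentation, altered at 200 genes far from others, and 200 of 200 came back as planted. The alterations were made in the same windows that were then counted, so this checks the counting alone. A gene chosen to have its E5 turned into E6 had nothing planted if it held no E5. A count of 0 of n was taken to allow a share of 3 of n. This limit is tighter than the exact intervals used elsewhere, and it treats ends, starts or genes as independent, which those of a family or cluster are not. The members and lists were chosen with earlier results of these data known. The genes named with values are those with a start-type end in either arm, the 10 largest increases and 5 largest decreases in start-type area, the 5 largest differences in marked area, and others by family. At the bottom of the decreases Nkx6-2, En1, Dlx5 and Dlx6 tie at -0.2 kb. No test was made.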

Additional observations from a re-analysis of the deposited data

How the results depend on the processing

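Of 49 recomputed values, 36 stayed within their limit and 13 moved. Counts of ends present in 1 arm only and of genes with more E1 or E6 were the least stable. The 1 end present in GSK-LSD1 only, at En2, became 0 with E4 added to the start-type states. It was 0 too with bins up to 1 kb from the end. With annotated starts alone the count was 0, but En2 has no start in the promoter table and was left out there. The 4 ends present in DMSO only became 2 with E4 added and 1 within 1 kb. With E4 added, 16 genes rather than 7 had less start-type area. The median difference in start-type area, 0.2 kb, was 0.6 kb with windows of 50 kb and 1.08 kb as a mean. It was 0.0 kb with windows of 5 kb, with E5 alone, with E4 added and without the family with the largest summed difference. Without Six4 it was 0.1 kb. The median difference in marked area, 0.0 kb, was -2.2 kb with 50 kb and -4.48 kb as a mean. The 5 genes with more E1 or E6 became 2 with windows of 5 kb, 11 with 50 kb and 3 with other genes' ends left out. No direction turned. Without Six4, an alternative chosen after seeing the data, 4 genes had more E1 or E6. No paired analysis was possible because each mark and treatment had 1 library and no result comes from a test. Depth is unknown, so a missing state may be a mark below the threshold.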
